A study of Bubalus bubalis with 3 samples.

Results

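The late-named bovine miRNAs are the known bovine miRNA names numbered beyond miR-2489. They were taken by name from a table of small RNA levels in buffalo fat, with miR-3600 left out. The rule found 30 names among 396 known bovine names and 622 listed names. The number of a miRNA is given in the order of registration, so names of this range were registered late, mostly after deep sequencing of small RNA. The rule itself uses names only, but the list was chosen with earlier results of these data known.

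The tissue was fat from Chinese swamp buffalo, Bubalus bubalis, at 6 months of age, and the assay was small RNA sequencing. All 3 libraries belonged to 1 group and keep the numbers of their titles, library 1, 2 and 3. The labels give no treatment, strain or fat depot and do not state if the libraries came from different animals. SDs and p-values thus describe the differences among these samples alone, possibly technical ones, and the design has no other condition to compare with.

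A miRNA is a short RNA cut from the stem of a hairpin transcript and loaded into an Argonaute protein, where its seed, near the 5′ end, pairs with messenger RNAs and lowers their translation and stability. Each hairpin can give a mature miRNA from its 5p arm and one from its 3p arm. Low-numbered miRNAs include many that are conserved across vertebrates and abundant in many tissues, such as let-7. Names registered later include more miRNAs known from few species or from few reads.

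Levels are TPM, here the part of a library's reads that carried a name, with no scaling by length. Low values fell on whole multiples of 1 step, which made 1 read worth 0.146, 0.148 and 0.182 TPM and the depth about 6860000, 6770000 and 5480000 reads in libraries 1, 2 and 3. The limit that a count of 0 allows was set at 3 reads, or 0.437, 0.443 and 0.547 TPM, which is a one-sided 95% bound on counting error. The two-sided 95% intervals used below reach somewhat higher at 0 reads. Library 2 stood apart. Its size factor, the typical ratio of its values to the geometric mean of the libraries, was 0.609, against 1.39 in library 1 and 1.16 in library 3, and miR-10b, the most abundant miRNA, held 48.8% of its TPM against 26.5% and 40.4%. Values below are therefore also given after division by the size factors where this changes what is seen. The part of the high miR-10b share in the low values of library 2 was not tested.

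No miRNA is restricted to fat cells, so the tissue label could be checked only for other cells. The 4 vessel wall markers summed to between 167343.1 and 281174.6 TPM, the 3 red blood cell markers to between 2557.5 and 6181.8 TPM and the 4 white blood cell markers to between 166.8 and 725.0 TPM. The 5 striated muscle markers summed to at most 33.3 TPM, the 5 epithelial markers to at most 15.4 TPM and the liver miRNA miR-122 to at most 0.6 TPM. No marker was at 0 in all 3 libraries. Which cells these reads came from was not tested, so no sum measures how much of a cell type was present.

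The late-named miRNAs were a small part of the miRNA pool. They summed to 551.9, 227.3 and 565.3 TPM in libraries 1, 2 and 3, or 0.0448% ± 0.0191 of TPM (SD, n = 3). One name, miR-6119-5p, held 69.7% ± 4.49 of that sum (74.7%, 65.9% and 68.4%), and the first 6 names held 94.9% ± 0.451. The other 29 names summed to 139.9, 77.4 and 178.9 TPM. The excluded miR-3600 alone had 17770 ± 7251 TPM and ranked 9 among all listed names, so the small sum depends on the rule that leaves it out. In bulk tissue, fewer cells of a type and less RNA per cell cannot be told apart.

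**Figure D1:**
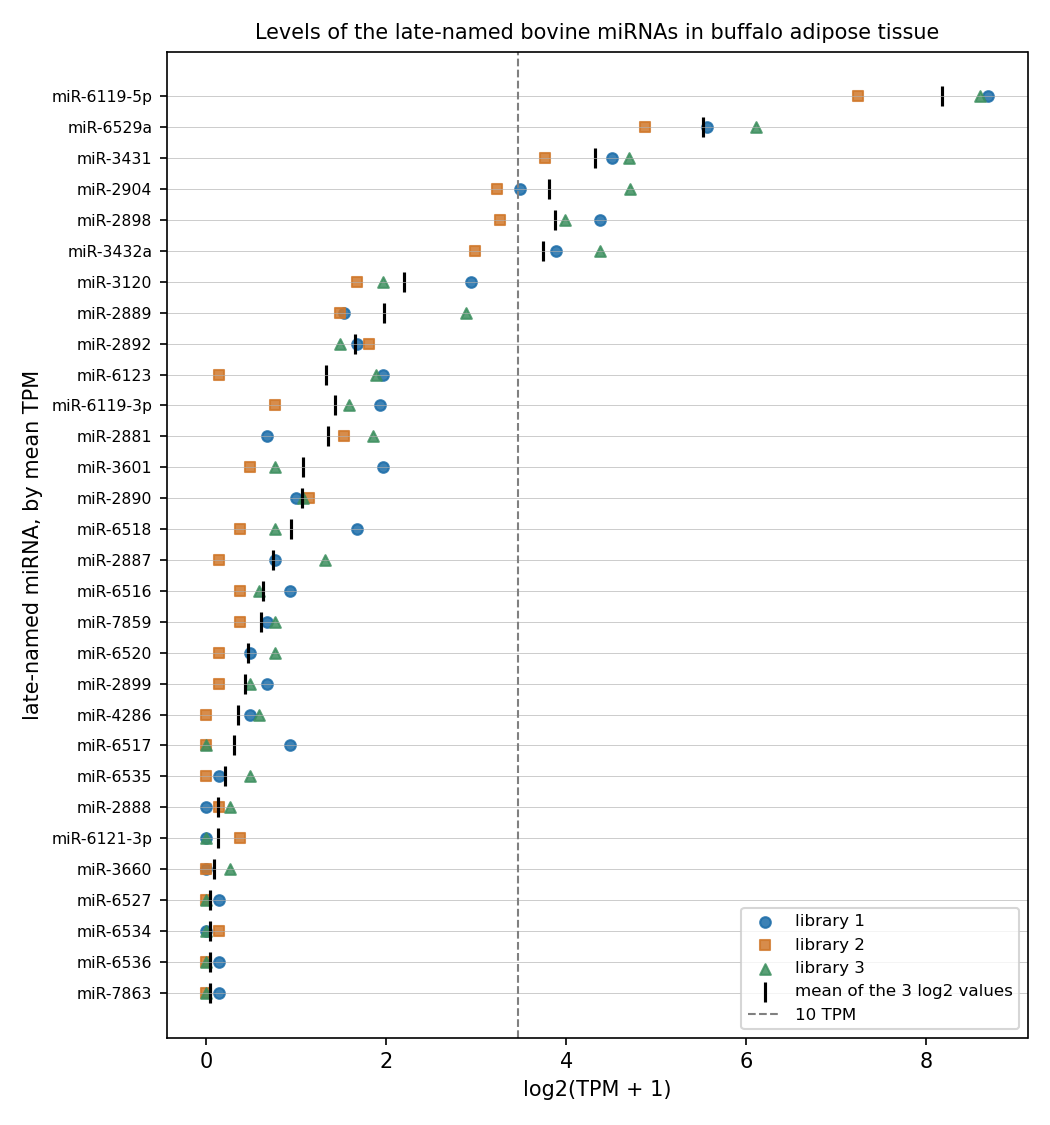
Each row is 1 of the 30 late-named miRNAs, ordered by mean TPM, with log2(TPM + 1) on the horizontal axis, 1 point per library, a tick at the mean of the 3 log2 values and a dashed line at 10 TPM. miR-6119-5p lies alone on the right, and 6 names have a mean TPM of 10 or more. The orange squares of library 2 are the lowest points for 19 of the 30 names. Library 2 was also the lowest for 380 of all 622 listed names and for 262 of the 366 other known names.

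miR-6119-5p was the most abundant late-named miRNA, with 412.0, 149.9 and 386.4 TPM in libraries 1, 2 and 3 (316.1 ± 144.5 TPM, SD, n = 3). It ranked 65 among all 622 names. Libraries 1 and 3 lay close together and library 2 lay well below both. After size factors the values were 297, 246 and 334 TPM, and the SD of log2(TPM + 1) was 0.22 in place of 0.81.

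miR-6529a came next, with 46.3, 28.4 and 68.2 TPM (47.6 ± 19.9 TPM, SD, n = 3). It was lower than miR-6119-5p in 3 of 3 libraries, by 6.64-fold between the means. As deposited, miR-6529a was lower in library 1 than in library 3, unlike miR-6119-5p. After size factors both were lower in library 1 than in library 3. Library 1 was then the lowest for miR-6529a (33.4, 46.7 and 58.9 TPM), while library 2 was the lowest for miR-6119-5p.

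A group of 4 names followed at similar levels. miR-3431 had 21.7, 12.6 and 25.0 TPM in libraries 1, 2 and 3, miR-2904 had 10.2, 8.4 and 25.2 TPM, miR-2898 had 19.8, 8.6 and 14.8 TPM, and miR-3432a had 13.8, 6.9 and 19.7 TPM. Their means were 19.8 ± 6.42, 14.6 ± 9.22, 14.4 ± 5.61 and 13.5 ± 6.41 TPM (SD, n = 3 each). Neighbouring means differed by less than the larger of their SDs, and no neighbouring pair kept its order in all 3 libraries, so their order is not established. miR-2904 and miR-2898 had nearly equal means from different values: miR-2904 was highest in library 3 and miR-2898 in library 1. miR-2904 reached the mean of 10 TPM through library 3, and its mean was 9.3 TPM without it. miR-3431 lay below miR-6529a, and miR-3432a above the next name, in 3 of 3 libraries, each by more than the SDs.

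These 6 of the 30 late-named miRNAs had a mean of 10 TPM or more. Over all 396 known names, 40.2% reached that mean. It was reached by 3 of the 48 names from miR-2284 to miR-2489 (6.25%) and by 149 of the 317 names before miR-2284 (47.0%). Median log2(TPM + 1) was 0.93, 0.38 and 0.77 for the late-named miRNAs in libraries 1, 2 and 3. It was 0.14, 0.14 and 0.37 for names from miR-2284 to miR-2489, 3.71, 2.49 and 3.51 for names before miR-2284, and 1.17, 0.49 and 1.07 over all listed names. The late-named median lay above that of the preceding number range and below that of the lower numbers in every library. In library 2 the medians of 0.38 and 0.14 both stood for levels below the limit of 3 reads. The order of these 2 ranges there rests on very few reads. The smallest two-sided p that an exact sign-flip permutation test allows with 3 libraries is 0.25, and these orders are given as descriptions.

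**Figure D2:**
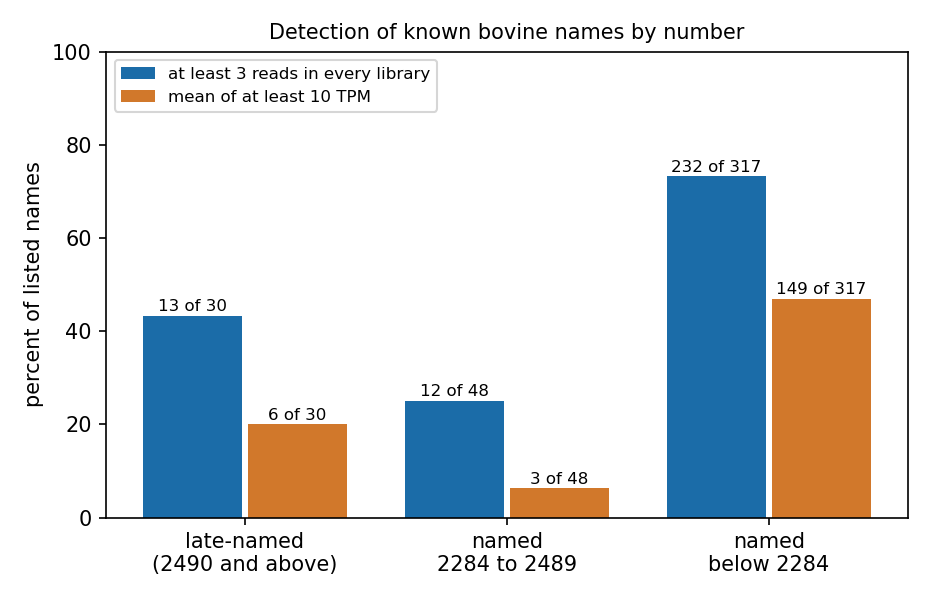
Bars give the percent of listed names in 3 number ranges with at least 3 estimated reads in every library (blue) and with a mean of 10 TPM or more (orange), with the counts above the bars. The late-named miRNAs stand between the other ranges on both measures, with 13 and 6 of 30 names.

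Reads in every library were found for 13 of the 30 late-named miRNAs at the limit of 3 reads, or 43.3%, against 65.2% of all known names, 25.0% of names from miR-2284 to miR-2489 and 73.2% of names before miR-2284. Without library 2, 20 names passed, and without library 1 or library 3, 13 did. The same counts over the known names were not made. Over all listed names, 541, 479 and 516 had a value above 0 in libraries 1, 2 and 3, so low detection in library 2 was general. The 7 names that fell short in library 2 only were miR-6123, miR-6518, miR-2887, miR-6516, miR-7859, miR-6520 and miR-4286. By number, 6 of the 9 names from miR-2881 to miR-2904 had 3 reads in every library, 4 of the 6 from miR-3120 to miR-4286, 3 of the 13 from miR-6119 to miR-6536, and 0 of 2 for miR-7859 and miR-7863. The range from miR-6119 to miR-6536 held both of the most abundant names and 5 of the 8 names that reached 3 reads in no library.

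Between 1 and 10 TPM lay 9 names. miR-3120 led them, with 6.7, 2.2 and 2.9 TPM (3.93 ± 2.42 TPM, SD, n = 3), and was highest in library 1. In human, miR-3120 is transcribed from the strand opposite miR-214 within the DNM3 gene, which encodes a dynamin of membrane fission. miR-214, a miRNA of stromal and mesenchymal cells, had 59.7, 36.0 and 64.0 TPM here. The level of miR-214 was 8.91, 16.4 and 22.1 times that of miR-3120 in libraries 1, 2 and 3, so both were detected in every library and their ratio was not constant.

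miR-2889 had 1.9, 1.8 and 6.4 TPM (3.37 ± 2.63 TPM, SD, n = 3), close in libraries 1 and 2 and higher in library 3. miR-2892 had 2.2, 2.5 and 1.8 TPM and miR-2890 had 1.0, 1.2 and 1.1 TPM. As deposited, these were the only 2 of the 15 names with a mean of 1 TPM or more that were highest in library 2, where most names were lowest, and their SDs of 0.351 and 0.10 TPM were the smallest of the 15. Neither SD was the smallest after size factors, where miR-2892 had 1.59, 4.11 and 1.56 TPM (SD 1.47) and miR-2890 had 0.720, 1.97 and 0.951 TPM (SD 0.666). miR-2881 had 0.6, 1.9 and 2.6 TPM, or about 4, 13 and 14 reads, and was lowest in library 1. After size factors it was also highest in library 2.

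The remaining names of this range rested on few reads in at least 1 library. miR-6123 had 2.9, 0.1 and 2.7 TPM, or about 20, 1 and 15 reads, so that its gap was in library 2. miR-3601 had 2.9, 0.4 and 0.7 TPM, or about 20, 3 and 4 reads, and miR-6518 had 2.2, 0.3 and 0.7 TPM, or about 15, 2 and 4 reads. Both were highest in library 1. The other name of the 9, the 3p arm of miR-6119, is described with its hairpin. In order of level, no neighbouring means among the 9 differed by more than the larger of their SDs.

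The 15 names with a mean below 1 TPM were counted at most 8 times in any library. miR-2887 had about 5, 1 and 8 reads in libraries 1, 2 and 3, miR-6516 about 6, 2 and 3, miR-7859 about 4, 2 and 4, miR-6520 about 3, 1 and 4, and miR-2899 about 4, 1 and 2. miR-4286 had about 3, 0 and 3 reads. miR-6517 was found in library 1 alone, with about 6 reads (0.9 TPM, 95% exact Poisson interval 0.321 to 1.90 TPM). The other 8 names, miR-6535, miR-2888, miR-6121-3p, miR-3660, miR-6527, miR-6534, miR-6536 and miR-7863, had 1 to 3 reads in all 3 libraries together and reached 3 reads in none. These counts are too few to rank the 8 names.

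Whether a miRNA differed between libraries beyond counting error was described with 95% exact Poisson intervals of the estimated reads, over the 13 names with at least 3 reads in every library. The intervals of the highest and lowest library did not overlap for 9 of the 13 names, against 84.9% of 258 known names that met the same limit. The 9 were the 6 names above 10 TPM, miR-3120, miR-2889 and miR-3601. For miR-2892, miR-6119-3p, miR-2881 and miR-2890, with about 42, 35, 31 and 21 reads over all libraries, the intervals overlapped. Intervals are wider at fewer reads, and the 258 known names were not matched to the 13 by level. The shares are therefore no measure of how much the late-named miRNAs varied against the others. With library 2 left out, 4 names had separate intervals, and 7 did with library 1 or library 3 left out. The same counts over the 258 known names were not made, so the fall is not read as a trait of the late-named miRNAs. Library 2 was the lowest library for 10 of the 13 names, against 87.2% of the 258 known names. Among names whose mean reached 10 TPM it was the lowest for 6 of 6 late-named miRNAs, against 91.8% of 159 known names, a share near the background.

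After size factors the intervals were separate for 6 of the 13 names, against 64.0% of the same 258 known names, again unmatched by level. They were miR-6119-5p, miR-6529a, miR-2904, miR-3432a, miR-2889 and miR-2881, while miR-3431, miR-2898, miR-3120 and miR-3601 overlapped. miR-2898 then had 14.3, 14.1 and 12.8 TPM, the smallest SD of log2(TPM + 1) among the 6 names above 10 TPM (0.08). miR-2904 had 7.35, 13.8 and 21.8 TPM, the largest (0.73). miR-2889 showed a like pattern at a lower level, with 1.37, 2.96 and 5.53 TPM.

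Of the 6 late-named miRNAs with separate intervals after size factors, 4, miR-6529a, miR-2904, miR-3432a and miR-2889, were highest in library 3 and lowest in library 1, as were 21.8% of the 165 known names with separate intervals. This grouping was made after the values were seen. The exceptions among the 6 were miR-6119-5p, which was lowest in library 2, and miR-2881, with 0.432, 3.12 and 2.25 TPM and its highest value in library 2. In both, library 3 also lay above library 1 without overlap, so they differed from the 4 only in the place of library 2. How many of the 165 known names had library 3 above library 1 without overlap was not counted. This order is therefore not read as a trait of the late-named miRNAs. The median SD of log2(TPM + 1) over the 6 names above 10 TPM was 0.66 as deposited and 0.31 after size factors. Over all listed names at that mean, these 6 included, it was 0.66 and 0.29. These 6 names thus varied between libraries about as much as listed names at that mean. The late-named miRNAs of lower level were not compared in this way.

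**Figure D3:**
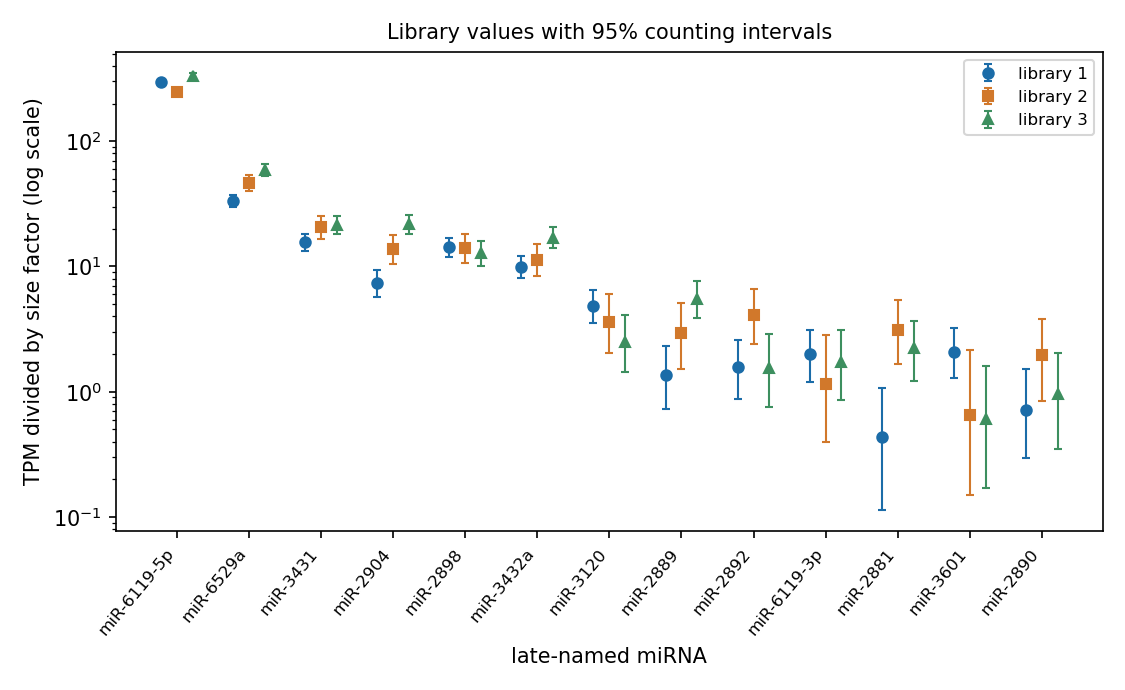
TPM divided by the size factor of the library, on a log axis, for the 13 late-named miRNAs with at least 3 reads in every library, with 1 point per library and bars for the 95% exact Poisson interval of the reads. Intervals are narrow for miR-6119-5p and wide below 5 TPM. Library 3 lies above library 1 without overlap for miR-6119-5p, miR-6529a, miR-2904, miR-3432a, miR-2889 and miR-2881. The share of known names with this order was not counted.

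Both arms were listed for 1 late-named hairpin, miR-6119. Its 5p arm, given above, had about 2828, 1015 and 2119 reads in libraries 1, 2 and 3, and its 3p arm about 19, 5 and 11 reads (2.8, 0.7 and 2.0 TPM; 1.83 ± 1.06 TPM, SD, n = 3). The 5p arm dominated in every library, and the ratio of the means was 172. The difference of log2(TPM + 1), 5p minus 3p, was 6.76, 6.47 and 7.01 (mean 6.75, SE 0.156; limma adjusted p = 5.4e-24 over 20 hairpins). The SE comes from the 3 differences of miR-6119 alone and plays no part in the p-value. The p-value rests on the spread pooled over all hairpins. Over the 20 hairpins the p-values followed the size of the difference, whatever the SD of the hairpin. The small p-value thus draws on the number of hairpins and not on more libraries. An exact test on 3 libraries alone allows no p below 0.25. Without library 3 the limma adjusted p was 6.15e-05. miR-6119 passed the minimum of 10 TPM through its 5p arm alone, which favours a large difference. The p-value is therefore no independent support for the difference.

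Among the 20 hairpins tested, the 5p arm was called higher in 55.0% (limma, adjusted p below 0.05), so a dominant 5p arm was common. Each hairpin was kept by the level of its higher arm, so this share holds for these 20 only. By size of the difference miR-6119 ranked 5 of 20, at 6.75 against a median of 4.10 for the absolute difference over the 20 hairpins. This rank holds for log2(TPM + 1), where the added 1 TPM shrinks differences whose lower arm is near 0. A hairpin with a smaller difference had a more unequal ratio of the means (0.00256, 5p over 3p, against 172 for miR-6119). As deposited, both arms were lowest in library 2 and highest in library 1. After size factors the 5p arm was highest in library 3 (297, 246 and 334 TPM) and the 3p arm in library 1 (2.02, 1.15 and 1.73 TPM), with overlapping intervals for the 3p arm.

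**Figure D4:**
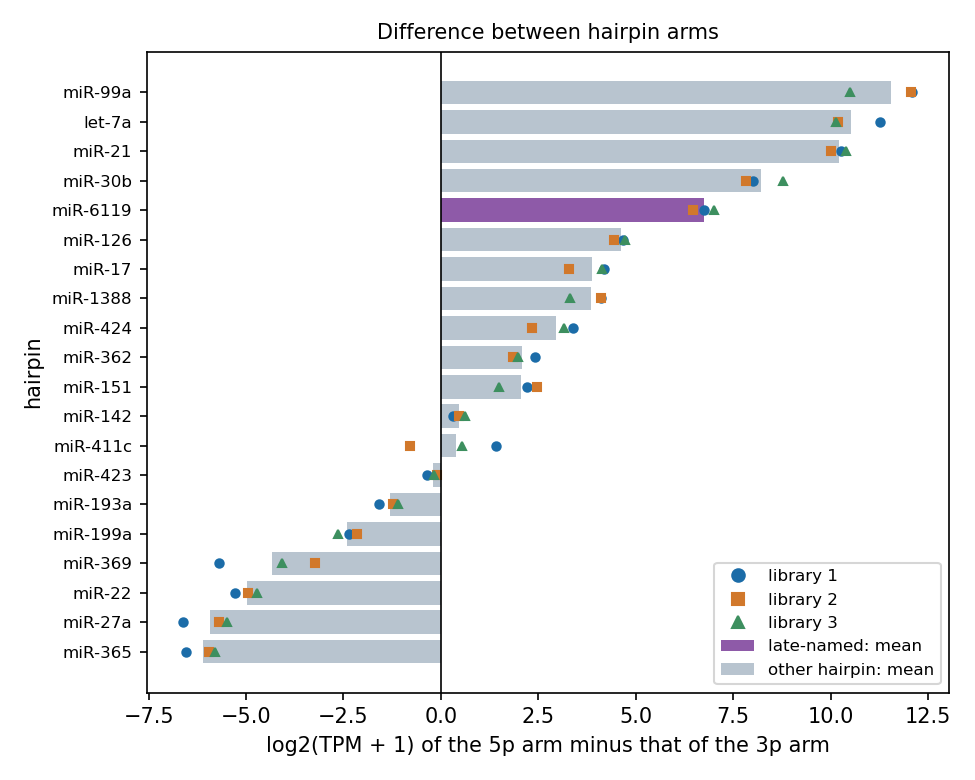
Bars give the mean difference of log2(TPM + 1), 5p arm minus 3p arm, for each of the 20 hairpins tested, with 1 point per library. The late-named hairpin miR-6119 (purple) has its 3 points at 6.47 to 7.01, all on the 5p side.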

How the data were processed

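The deposited table holds TPM for 3 small RNA libraries of adipose tissue, per the file headers. Per the labels' protocols, RNA was extracted with TRIzol, ligated to adaptors with an Illumina TruSeq kit, size-selected on a gel and sequenced on a HiSeq instrument. The submitters' processing notes name Bowtie and UMD3.1, a genome build, without a stated step. Counting, miRNA annotation and filters: not given in the sources used here. All value columns were mapped by name.

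Members were chosen by name, and lists and tests with earlier results of these data known. Reads were estimated as the value divided by the step of the low values: 100.0% of 400, 371 and 378 values up to 30 TPM lay on it within rounding to 1 decimal. No count model was fitted. Levels used log2(TPM + 1), which understates changes of low names. Size factors were medians of ratios over names whose mean reached 10 TPM. Arms were compared with limma 3.58.1 (R 4.3.3) with Benjamini-Hochberg adjustment, over hairpins with a mean of 10 TPM or more in the higher arm. Steps and fit were tested on simulated data. The simulated arms had high levels and the same spread for every hairpin. They could not test the fit for arms with few reads or for hairpins of unequal spread. Poisson intervals (scipy 1.17.1) and the limit of 3 reads cover counting error only, since PCR reads are not independent molecules. Named miRNAs were those whose mean reached 10 TPM, both arms of a listed hairpin, and the next by mean up to 20. Names found in 1 library, and the other low names, were named after their values were seen. Alternatives were the pseudocount, the minimum, size factors and leaving out each library.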

Additional observations from a re-analysis of the deposited data

How the results depend on the processing

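With 1 read worth about 0.15 to 0.18 TPM, depth limits all names below about 1 TPM. The arm difference of miR-6119 kept its direction and its side of the threshold under every alternative run, with values of 4.66 (pseudocount of 10 TPM) to 7.41 (pseudocount of 0.1 TPM) and 6.62 to 6.89 with a library left out. The number of late-named miRNAs at the minimum mean was 6, against 15 for a minimum of 1 TPM and 1 for a minimum of 100 TPM, and 5 to 6 with a library left out. With a value above 0 in every library 20 names passed in place of 13, with at least 10 reads in every library 9 did, and 13 to 20 did with a library left out. The summed share was 0.0715% once miR-10b was removed from the total, 0.0132% without miR-6119-5p, and 0.0390% to 0.0559% with a library left out. The median log2(TPM + 1) was -0.55 with a pseudocount of 0.1 TPM and 3.41 with 10 TPM, which follows from the added amount, 1.87 over names whose mean reached 1 TPM, and 0.57 to 0.85 with a library left out. The median SD was 0.46 with a pseudocount of 10 TPM, 0.31 after size factors, and 0.31 (without library 2) to 0.92 (without library 1) with a library left out. Names with separate intervals numbered 9, 8 with 99% intervals, 6 after size factors and 4 to 7 with a library left out, all alternatives chosen after seeing the data. Seeds of the late-named miRNAs were not compared, and that alternative was not run. No paired analysis was possible because the series has 1 group and so no groups to pair by replicate number, while the arm difference was taken within each library.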
